A study of Homo sapiens with 15 samples.

Results

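The cytosolic RNA and DNA sensors are proteins inside the cell that bind nucleic acid out of place, together with the adaptors that pass the signal on. They were taken from the count table by gene symbol, as *DDX58*, *IFIH1*, *DHX58*, *MAVS*, *STING1*, *CGAS*, *IFI16*, *AIM2* and *ZBP1*. All 9 genes had a row among the 60286 listed, and 8 of them were among the 17198 genes with enough counts for a test, *ZBP1* being left out. The cells were THP-1, a monocytic leukemia line from human of wild-type genotype, and their RNA was sequenced in 15 libraries, 3 in each of 5 groups, after contact with bacterial extracellular vesicles (BEVs) or PBS. Control cells were given PBS and are called NC in the labels. The EUC and EPL groups were given *E. coli* BEVs at 1 μg/mL of protein, isolated by ultracentrifugation (UC) or by precipitation with ε-poly-L-lysine (PL). The SUC and SPL groups were given *S. aureus* BEVs at 10 μg/mL, isolated by UC or PL, so that species and dose cannot be told apart. The deposited labels give Day 0 for every library, while the methods of the study describe an incubation of several hours. All groups were the same cell line in the same medium, and the labels do not say that the 3 libraries of a group came from separate cultures, so p-values measure the spread between these libraries, which may be technical.

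RIG-I, encoded by *DDX58*, and MDA5, encoded by *IFIH1*, are helicases that bind viral RNA and recruit the mitochondrial adaptor MAVS, while LGP2, encoded by *DHX58*, binds RNA without signaling itself and tunes the other two. On the DNA side, cGAS makes the messenger cGAMP, which activates the adaptor STING on the endoplasmic reticulum, IFI16 and AIM2 bind DNA through HIN domains, AIM2 forms an inflammasome, and ZBP1 binds Z-form nucleic acid and can start necroptosis. MAVS and STING both lead to kinases that phosphorylate interferon regulatory factors, and several of the sensor genes are themselves induced by interferon.

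Levels are given as CPM, reads scaled to a common library size after TMM normalization. The libraries held 14399421 to 16637345 reads assigned to genes. Of 10 monocyte marker genes, 9 had a mean of at least 1 CPM in every group. Their summed level was 1060.0 to 1079 CPM in PBS libraries and 1644 to 2171 CPM in BEV libraries, carried mainly by *SPI1* (471 CPM in PBS cells and a mean of 1066 CPM over the BEV libraries). One by one, 4 of the 10 were higher in all BEV libraries than in PBS, 2 were lower (*CD33*, 82.8 to 57.5 CPM, and *MPO*, 10.2 to 3.94 CPM) and 4 overlapped. The T cell markers *CD3D* and *CD3G* and all 3 erythroid markers were at 0 in all 15 libraries. The 4 fibroblast markers summed to 0.640 to 0.941 CPM in PBS libraries and 2.12 to 7.02 CPM in BEV libraries, through *COL1A1* and *DCN*, while *COL1A2* was at 0 in PBS, EUC, EPL and SUC. The 3 endothelial markers, nearly all *PECAM1*, summed to 303 to 309 CPM in PBS and 209 to 287 CPM in BEV libraries. For NK cell markers the sums were 23.7 to 26.6 and 23.6 to 29.9 CPM, for B cell markers 3.90 to 5.43 and 1.38 to 4.56 CPM, and for epithelial markers 2.05 to 4.05 and 1.37 to 2.87 CPM. The part of these markers in the results on the sensors was not tested. In bulk RNA, fewer cells of a type and less RNA per cell cannot be told apart. Clustering of all tested genes put EUC2, EUC3, EPL1 and SUC3 apart from the other 8 BEV libraries, and no label names a batch. In these 4 libraries *MAVS* was at 0.728 to 0.789 and *DDX58* at 0.541 to 0.722 of the mean level in the other libraries of their group. Without them EUC has 1 library and EPL and SUC have 2 each, and the lone EUC library is assumed to vary like the other groups. In that fit 6 sensors were called in each comparison with PBS, which for EUC is no check of stability.

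RNA of 5 of the 8 tested sensors rose after each of the 4 BEV preparations, *DDX58*, *IFIH1*, *DHX58*, *IFI16* and *AIM2*, and that of 1, *STING1*, fell. *CGAS* was higher by less than 2-fold, and *MAVS* did not pass the test. A gene was called when edgeR's quasi-likelihood test gave an adjusted p of at most 0.01 (Benjamini-Hochberg) and the log2 fold change was at least 1 in size. In EUC, 5 of the 8 were called up against 9.43% of all tested genes, and 1 was called down against 5.75%. The same 5 and 1 were called in EPL, where the shares of all tested genes were 9.38% and 5.15%. The shares were 6.82% up and 3.06% down in SUC, and 7.76% up and 3.70% down in SPL, for the same counts of sensors. The 4 comparisons share the 3 PBS libraries and are not independent of each other. The median log2 fold change over the 8 tested sensors was 2.77 for EUC, 2.76 for EPL, 2.34 for SUC and 2.54 for SPL, beside medians within 0.01 of 0 over all tested genes. *AIM2* and *DDX58* passed the filter on low counts only with the help of the BEV libraries, since 0 and 2 of the 3 PBS libraries reached its level, so neither counts as support for these numbers. All 12 BEV libraries lay on one side of the 3 PBS libraries for 7 of the 8 tested sensors, which holds for 33.6% of all tested genes. The 7 include *AIM2* and *DDX58*, which do not count as support here either.

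**Figure D1:**
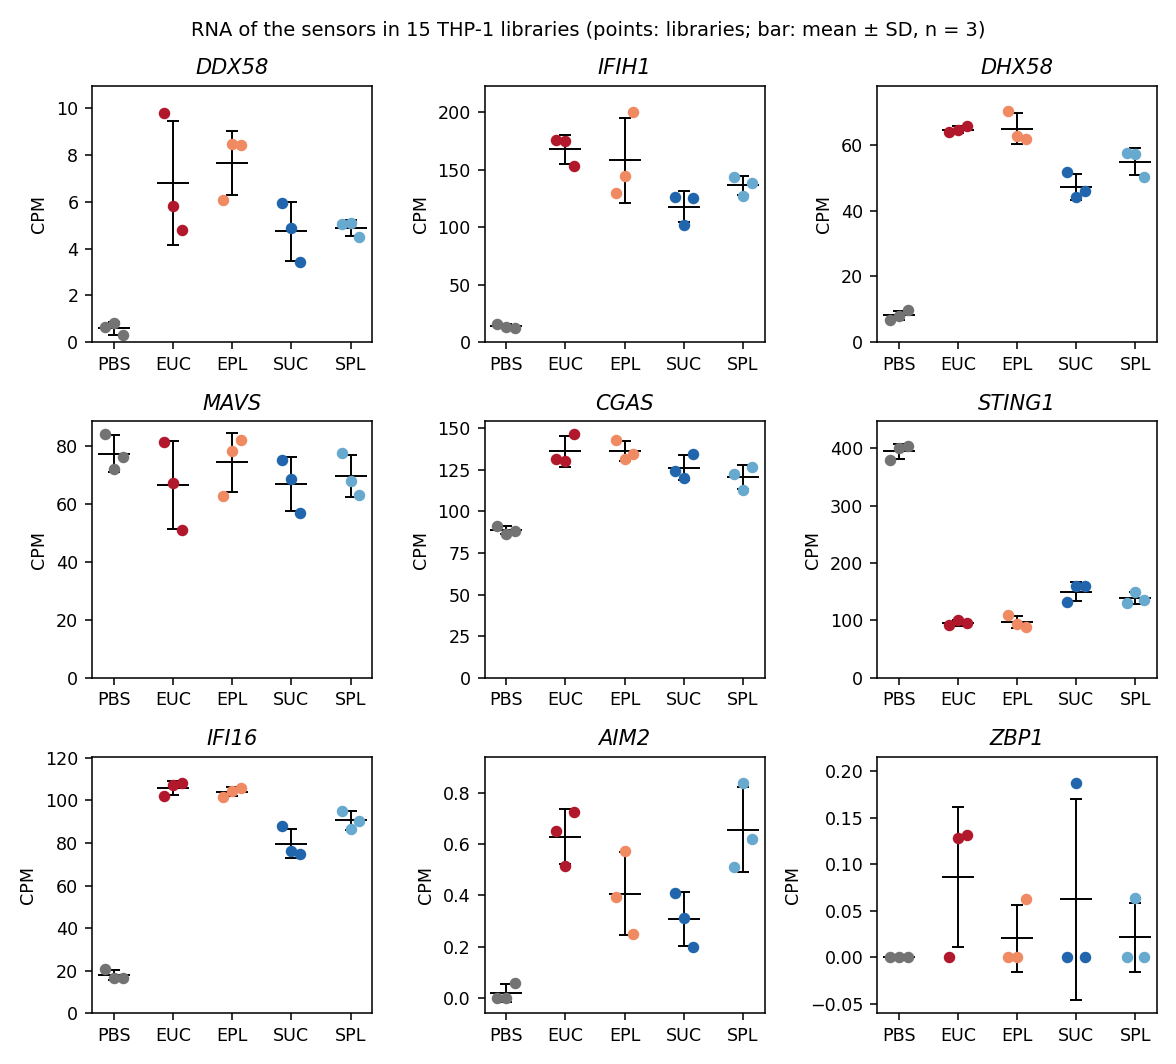
Level of each of the 9 genes (y axis, CPM, linear) in the PBS, EUC, EPL, SUC and SPL groups. Points are libraries and bars the mean ± SD of 3 libraries; the BEV libraries lie above PBS for *DDX58*, *IFIH1*, *DHX58*, *CGAS*, *IFI16* and *AIM2* and below it for *STING1*, and they overlap for *MAVS* and *ZBP1*.

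Promoter sequence was available for 5 of the 9 genes among the RefSeq windows of GRCh38.p14, which run from 250 bases before to 50 bases after an annotated start. The motifs looked for on both strands were GAAA and GAAA with any 2 bases between them, the core of an interferon-stimulated response element, TTC and GAA with any 3 bases between them, the core of a gamma-activated sequence, and GGGA and TTTCC with any base between them, a form of NF-kappa B site. Of all 35116 windows, 3.57% held the first, 7.66% the second and 0.558% the third. *DHX58*, *CGAS*, *STING1* and *ZBP1* had no window. The 250 bases before the start are shown for 3 sensors that rose and have a match, and for *MAVS*, which has none, 5′ to 3′ along the gene's strand, with the bases of a match in capitals. The regions are chr9:32526197-32526446 on the minus strand for *DDX58*, chr2:162318685-162318934 on the minus strand for *IFIH1*, chr1:159076767-159077016 on the minus strand for *AIM2*, and chr20:3846584-3846833 on the plus strand for *MAVS*.
DDX58: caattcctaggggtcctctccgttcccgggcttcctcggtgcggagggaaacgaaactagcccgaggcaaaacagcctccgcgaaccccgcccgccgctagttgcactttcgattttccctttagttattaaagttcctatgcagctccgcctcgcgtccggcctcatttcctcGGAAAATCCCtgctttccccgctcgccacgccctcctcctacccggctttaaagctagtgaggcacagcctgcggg
IFIH1: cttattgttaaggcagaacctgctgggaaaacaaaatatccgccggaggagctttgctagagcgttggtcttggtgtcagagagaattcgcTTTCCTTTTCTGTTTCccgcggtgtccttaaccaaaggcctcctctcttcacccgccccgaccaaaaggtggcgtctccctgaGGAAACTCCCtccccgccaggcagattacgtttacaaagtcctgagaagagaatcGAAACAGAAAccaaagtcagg
AIM2: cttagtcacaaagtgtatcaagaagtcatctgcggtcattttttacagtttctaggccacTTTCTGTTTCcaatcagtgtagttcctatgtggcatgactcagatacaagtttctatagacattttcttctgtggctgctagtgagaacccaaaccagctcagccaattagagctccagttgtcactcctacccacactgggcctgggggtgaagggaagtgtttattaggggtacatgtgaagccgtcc
MAVS: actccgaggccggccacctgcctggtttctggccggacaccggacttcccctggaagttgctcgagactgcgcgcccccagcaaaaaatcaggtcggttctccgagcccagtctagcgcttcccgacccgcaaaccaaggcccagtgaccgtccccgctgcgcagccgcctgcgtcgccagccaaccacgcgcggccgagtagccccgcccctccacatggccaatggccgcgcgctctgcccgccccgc
The window of *DDX58*, listed as RIGI in RefSeq, held the NF-kappa B form on the minus strand at bases -76 to -67 from the start. That of *IFIH1* held the same form at the same distance, -76 to -67. It also held the interferon-stimulated element core on the minus strand at -159 to -150 and at -153 to -144, which overlap, and on the plus strand at -21 to -12. In *AIM2* the match was the interferon-stimulated element core on the minus strand at -190 to -181, and this window lies inside the span of the gene in GENCODE, whose longest transcript starts further upstream. No match was found in the window of *MAVS* or in either of the 2 windows of *IFI16*, a sensor that rose. Both windows of *IFI16* also lie inside the span of that gene in GENCODE. A match describes letters and is not a binding site or a cause of a change, and no match says only that these letters are not in this window.

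*DDX58* (ENSG00000107201, named RIGI in GENCODE release 44, chr9:32455302-32526208, minus strand, hg38) encodes the sensor of short RNA with a triphosphate end. Its level was 0.640, 0.823 and 0.298 CPM in the 3 PBS libraries, from 10, 14 and 5 reads. With *E. coli* BEVs it was 9.82, 5.83 and 4.80 CPM in EUC and 6.10, 8.47 and 8.43 CPM in EPL. With *S. aureus* BEVs it was 5.94, 4.87 and 3.43 CPM in SUC and 5.05, 5.09 and 4.48 CPM in SPL. The lowest BEV library, SUC3, was still above the highest PBS library. All EPL libraries lay above all SUC and SPL libraries, and the other pairs of BEV groups overlapped. EUC was the most variable of the BEV groups, with EUC1 well above EUC2 and EUC3. Against PBS, edgeR gave a log2 fold change of 3.52 for EUC (SE 0.352, adjusted p 3.29e-07), 3.69 for EPL (SE 0.349, adjusted p 1.72e-07), 2.998 for SUC (SE 0.363, adjusted p 5.27e-06) and 3.04 for SPL (SE 0.362, adjusted p 3.7e-06). Without the 4 libraries that cluster apart, the value for EUC was 4.05, from EUC1 alone, the library with the highest level. Of the 4628 exon bases of the canonical transcript of *DDX58*, 4471 (96.6%) lie also in exons of ENSG00000288684, a gene on the same strand. That gene had 0 counts in all 15 libraries, and how reads shared by both were assigned is unknown, so the level of *DDX58* is not set beside that of other genes.

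*IFIH1* (ENSG00000115267, chr2:162267074-162318684, minus strand) encodes MDA5, which binds long double-stranded RNA. In PBS cells it was at 16.1, 13.2 and 12.5 CPM. In EUC it was at 175, 175 and 153 CPM, and in EPL at 130.0, 144 and 200.3 CPM. In SUC it was at 126, 102 and 125 CPM, and in SPL at 144, 127 and 138 CPM. Every BEV library was far above every PBS library, EPL3 was the highest of all, and the 3 SPL libraries lay above the 3 SUC libraries. The level rose 12.1-fold in EUC (log2 fold change 3.59, SE 0.158, adjusted p 6.56e-12, edgeR) and 11.4-fold in EPL (3.51, SE 0.157, adjusted p 9.39e-12). It rose 8.48-fold in SUC (log2 fold change 3.08, SE 0.156, adjusted p 6.57e-11, edgeR) and 9.82-fold in SPL (3.30, SE 0.156, adjusted p 2.49e-11). These were the largest rises among the sensors with at least 1 CPM in every library.

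*DHX58* (ENSG00000108771, chr17:42101404-42112714, minus strand) encodes LGP2, the member of this helicase family without the signaling domains. PBS libraries held 6.85, 8.06 and 9.66 CPM. EUC libraries held 63.8, 64.4 and 65.7 CPM, and EPL libraries 70.3, 62.8 and 61.8 CPM. SUC libraries held 51.7, 44.2 and 45.9 CPM, and SPL libraries 57.4, 57.1 and 50.1 CPM. The replicates were close together, with an SD of 0.957 CPM in EUC, and the 6 libraries with *E. coli* BEVs were all above the 6 with *S. aureus* BEVs. The log2 fold change by edgeR was 2.98 for EUC (SE 0.117, adjusted p 1.58e-12), 2.98 for EPL (SE 0.117, adjusted p 1.71e-12), 2.53 for SUC (SE 0.117, adjusted p 2.11e-11) and 2.74 for SPL (SE 0.117, adjusted p 6.41e-12), or between 5.76-fold and 7.91-fold.

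*MAVS* (ENSG00000088888, chr20:3846799-3876123, plus strand), the adaptor that the RNA helicases share, was not called in any comparison. It was at 84.2, 71.9 and 76.1 CPM in PBS cells. The levels were 81.2, 67.2 and 51.0 CPM in EUC and 62.9, 78.2 and 81.9 CPM in EPL. They were 75.2, 68.5 and 56.7 CPM in SUC and 77.5, 68.0 and 63.2 CPM in SPL. All 4 BEV groups overlapped the PBS group, and the lowest libraries of EUC, EPL and SUC were 3 of the 4 that cluster apart. The log2 fold change lay between -0.22 in EUC (SE 0.150, adjusted p 0.268, edgeR) and -0.057 in EPL (SE 0.150, adjusted p 0.799). The range of 2 SE on either side reached from -0.52 to 0.082 in EUC and from -0.51 to 0.088 in SUC, so a 2-fold change lay outside it in both. Without the 4 libraries the value was 0.072 for EUC, from 1 library, and 0.053 for EPL, from 2.

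*CGAS* (ENSG00000164430, chr6:73413515-73452297, minus strand), the synthase of cGAMP, was higher in all BEV groups but below the 2-fold threshold. Its level was 91.2, 86.3 and 88.3 CPM in PBS cells. It was 131, 130.0 and 147 CPM in EUC and 143, 131 and 135 CPM in EPL. SUC libraries held 124, 120.0 and 135 CPM, and SPL libraries 122, 113 and 127 CPM. Every BEV library was above the highest PBS library. All EUC and EPL libraries lay above all SPL libraries, and the other pairs of BEV groups overlapped. The difference from PBS was past the adjusted p in each group by edgeR, with 1.54-fold for EUC (log2 fold change 0.62, SE 0.0787, adjusted p 5.96e-06), 1.54-fold for EPL (adjusted p 5.97e-06), 1.42-fold for SUC (adjusted p 7.22e-05) and 1.36-fold for SPL (adjusted p 0.00025). It was not counted as called.

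*STING1* (ENSG00000184584, chr5:139475533-139482935, minus strand), which encodes the receptor of cGAMP, was the one tested sensor whose RNA fell. In PBS libraries it was at 379.9, 401 and 405 CPM. With *E. coli* BEVs it was at 91.5, 101 and 94.7 CPM in EUC and 109, 94.2 and 88.9 CPM in EPL. With *S. aureus* BEVs it was at 131, 159.6 and 159.6 CPM in SUC and 131, 150.2 and 136 CPM in SPL. All PBS libraries were far above all BEV libraries, and the 6 libraries with *E. coli* BEVs were below the 6 with *S. aureus* BEVs. The level was 4.12-fold lower in EUC (log2 fold change -2.04, SE 0.0985, adjusted p 2.33e-11, edgeR) and 4.06-fold lower in EPL (-2.02, SE 0.0984, adjusted p 2.77e-11). It was 2.63-fold lower in SUC (log2 fold change -1.40, SE 0.0963, adjusted p 4.38e-09, edgeR) and 2.84-fold lower in SPL (-1.51, SE 0.0967, adjusted p 1.37e-09).

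*IFI16* (ENSG00000163565, chr1:158999968-159055155, plus strand) and *AIM2* (ENSG00000163568, chr1:159061599-159187843, minus strand) are neighbours on chromosome 1 and belong to the PYHIN family of DNA-binding proteins. *IFI16* was at 20.7, 16.6 and 16.5 CPM in PBS cells. It was at 102, 107 and 108 CPM in EUC and 102, 104 and 106 CPM in EPL. In SUC it was at 87.8, 76.4 and 75.0 CPM, and in SPL at 95.2, 86.4 and 90.5 CPM. Again every BEV library was above PBS, and every *E. coli* library above every *S. aureus* library. The log2 fold change of *IFI16* by edgeR was 2.56 for EUC (SE 0.0983, adjusted p 1.18e-12), 2.54 for EPL (SE 0.0982, adjusted p 1.43e-12), 2.15 for SUC (SE 0.0976, adjusted p 1.65e-11) and 2.34 for SPL (SE 0.0979, adjusted p 5.1e-12).

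*AIM2* was rare. The 3 PBS libraries had 0, 0 and 1 reads of it. There were 10, 8 and 11 reads in EUC and 6, 9 and 4 in EPL. SUC had 6, 5 and 3 reads and SPL 8, 13 and 9. The lowest BEV library, SUC3, was above the PBS library with 1 read. All SUC libraries lay below all EUC and all SPL libraries, and the other pairs of BEV groups overlapped. Between SUC and SPL, 12.8% of all tested genes had no overlap. The ratio of normalized counts to PBS was 31.0 for EUC (95% exact binomial interval 5.14 to 1267), 20.0 for EPL (3.18 to 831), 15.1 for SUC (2.30 to 639) and 32.4 for SPL (5.39 to 1323), where the intervals cover counting error only. In the edgeR fit *AIM2* was called in all 4 groups, with adjusted p 0.000119 for EUC, 0.000961 for EPL, 0.00449 for SUC and 0.000126 for SPL. The call in SUC was lost in 6 of the alternatives, namely without NC1, NC2, SUC1 or SUC2, without the filter on low counts, and with DESeq2 (adjusted p 0.0118 to 0.0245). Leaving out the other groups took *AIM2* below the filter in each comparison with PBS. *ZBP1* (ENSG00000124256, chr20:57603846-57620576, minus strand) had 0 reads in the 3 PBS libraries. It had 0, 2 and 2 reads for EUC, 0, 0 and 1 for EPL, 0, 3 and 0 for SUC and 0, 1 and 0 for SPL. A count of 0 allows up to 3 reads over the PBS group, and a change of *ZBP1* was not detectable at this depth.

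**Figure D2:**
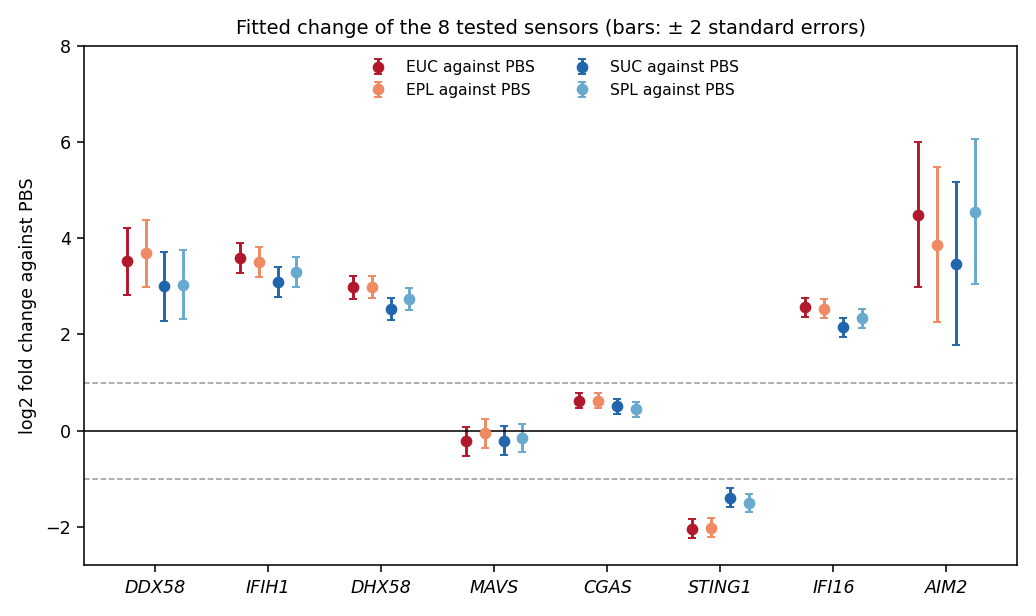
Fitted log2 fold change against PBS (y axis) of the 8 tested sensors in EUC, EPL, SUC and SPL. Points are edgeR estimates from 3 libraries a group, bars are 2 SE on either side and dashed lines mark 2-fold; *MAVS* and *CGAS* stay between the dashed lines, *STING1* lies below them and the other 5 above.

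The level per length of transcript allows the genes to be ordered within a group, but the order depends on the length that is taken. It is given as CPM per kb of exon, first over the exon bases of all transcripts of a gene in GENCODE release 44. In PBS cells *STING1* was the highest at 82.3 ± 2.77 (SD, n = 3), followed by *CGAS* at 21.2 ± 0.590, *MAVS* at 6.57 ± 0.533, *IFI16* at 3.39 ± 0.456, *IFIH1* at 2.66 ± 0.365 and *DHX58* at 2.14 ± 0.369. The synthase and receptor of cGAMP headed this order, and the RNA helicases stood at its end. In EUC *CGAS* at 32.6 ± 2.23 and *IFIH1* at 32.1 ± 2.41 came first and did not differ beyond their spread. *IFI16* at 20.0 ± 0.617 and *STING1* at 20.0 ± 1.05 came next, then *DHX58* at 16.9 ± 0.250 and *MAVS* at 5.65 ± 1.28. The order in EPL was alike, with *CGAS* at 32.6 ± 1.43, *IFIH1* at 30.3 ± 7.11, *STING1* at 20.3 ± 2.13 and *IFI16* at 19.6 ± 0.396. In SUC *STING1* at 31.3 ± 3.41 and *CGAS* at 30.2 ± 1.81 were at the top, above *IFIH1* at 22.6 ± 2.60. In SPL *STING1* at 29.0 ± 2.11, *CGAS* at 28.9 ± 1.73 and *IFIH1* at 26.1 ± 1.60 were close to each other over this length. *MAVS* was the lowest of the 6 in every BEV group. Over the canonical transcript alone, an alternative chosen after seeing the data, the order in PBS cells was the same, and *STING1* stood higher among the genes other than *MAVS*. That *MAVS* was again the lowest in every BEV group was fixed in advance. Its length is 11771 bases over all transcripts and 11731 in the canonical one, while the lengths of the other genes become shorter. Over the canonical transcript EUC had *IFIH1* at 46.8 ± 3.51, *STING1* at 44.2 ± 2.32, *CGAS* at 42.5 ± 2.91 and *IFI16* at 36.7 ± 1.13 CPM per kb. In SPL *STING1* was then at 64.0 ± 4.66, well above *IFIH1* at 38.1 ± 2.33 and *CGAS* at 37.7 ± 2.25, and in SUC at 69.2 ± 7.54, above *CGAS* at 39.4 ± 2.36.

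**Figure D3:**
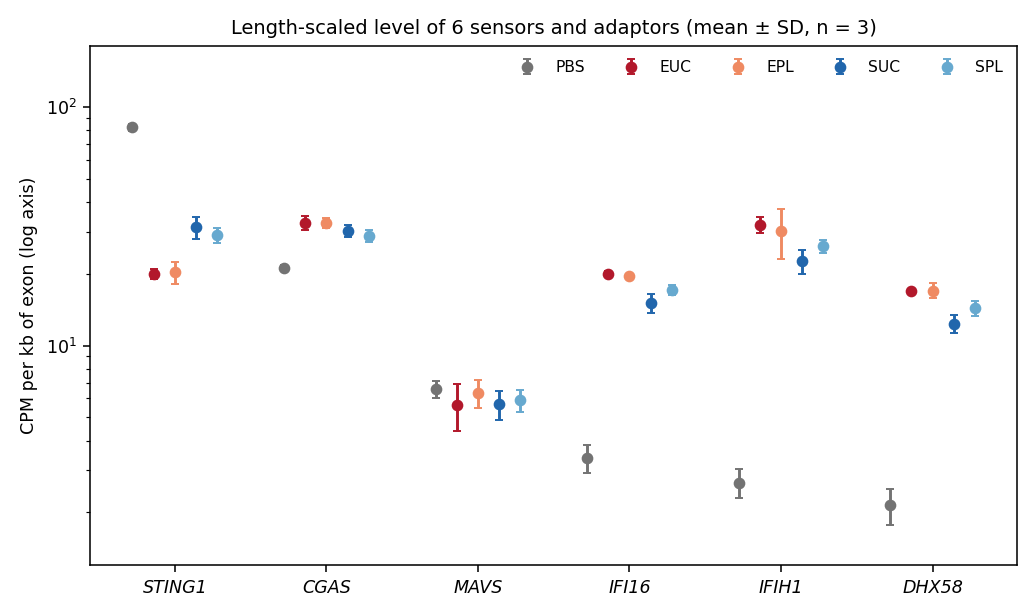
Level per length (y axis, CPM per kb over the exons of all transcripts, log axis) of 6 sensors and adaptors in the 5 groups. Points are means and bars the SD of 3 libraries; in PBS cells *STING1* is at 82.3 and *DHX58* at 2.14, and in EUC the 5 genes other than *MAVS* lie between 16.9 and 32.6.

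Ratios between members of one pathway, taken within a library per exon base, do not depend on the scaling of the libraries, and their change from PBS does not depend on the length taken. The ratio of *STING1* to *CGAS*, receptor to synthase, was 3.62, 4.04 and 3.99 in PBS libraries. It was 0.607, 0.678 and 0.561 in EUC and 0.662, 0.625 and 0.574 in EPL. It was 0.921, 1.16 and 1.03 in SUC and 0.928, 1.16 and 0.933 in SPL. All BEV libraries were below PBS, and the *E. coli* libraries were the lowest. Over the canonical transcripts the means were 6.58 in PBS cells, 1.04 for EUC, 1.05 for EPL, 1.76 for SUC and 1.71 for SPL, so whether *STING1* or *CGAS* RNA was the more abundant per base with *E. coli* BEVs turned on the length. Over the 12 BEV libraries the ratio was 4.90-fold lower (log2 difference -2.29), given without a test because both genes already lay apart from PBS in opposite directions. The ratio of *IFIH1* to its adaptor *MAVS* was 0.404 ± 0.0313 in PBS cells (SD, n = 3) and 5.83 ± 0.951 for EUC, 4.77 ± 0.686 for EPL, 4.04 ± 0.842 for SUC and 4.44 ± 0.422 for SPL. It was 11.6-fold higher in BEV cells, given without a test because *IFIH1* already lay far apart from PBS. *IFI16* to *STING1* went from 0.0413 ± 0.00706 in PBS cells to 1.00 ± 0.0396 for EUC, 0.977 ± 0.118 for EPL, 0.489 ± 0.102 for SUC and 0.595 ± 0.0699 for SPL, a 17.7-fold difference over all BEV libraries, again fixed by the opposite changes of both genes. The ratio of the helicases *IFIH1* and *DHX58* to each other was 1.29 ± 0.394 in PBS cells and group means of 1.80 to 1.90 in BEV cells. These libraries overlapped, and the 1.46-fold difference had an exact two-sided permutation p of 0.0132 over 455 splits. The splits pool the 4 BEV preparations as 1 group, so this p does not measure the difference for any 1 preparation. Benjamini-Hochberg adjustment over the 4 ratios computed also gave 0.0132 (permutation test), but it counts the other ratios, whose outcome was already fixed.

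**Figure D4:**
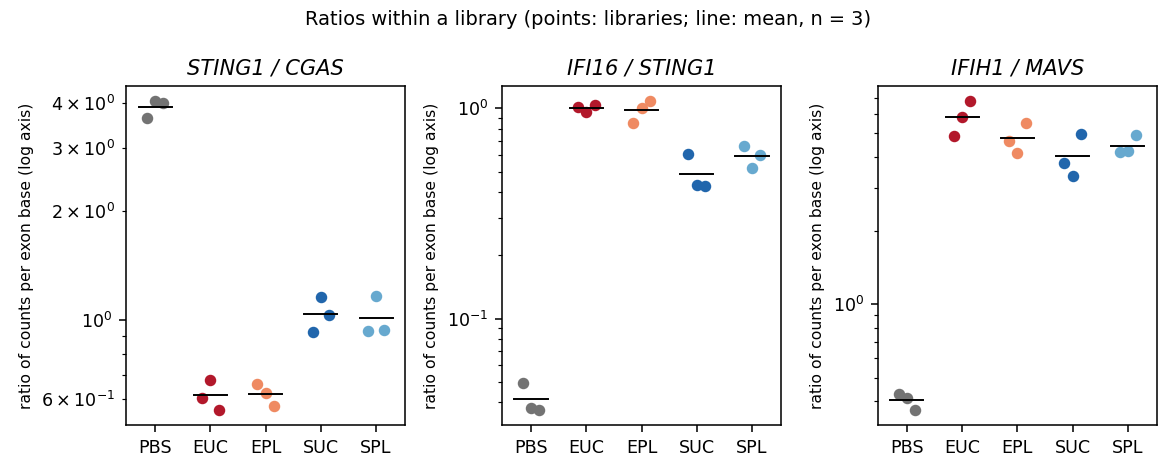
Ratio of reads per exon base between 2 genes within a library (y axis, log axis) in the 5 groups, for *STING1* to *CGAS*, *IFI16* to *STING1* and *IFIH1* to *MAVS*. Points are libraries and lines the mean of 3; the first falls from 3.88 in PBS cells to 0.615 in EUC, and the other ratios are higher in every BEV library than in PBS.

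The isolation methods were compared directly within each species. Between EPL and EUC no sensor was called by edgeR or DESeq2, as for 0.00% of all tested genes, and none of the 8 had an unadjusted p under 0.05, where 3.51% of all tested genes had one. The log2 difference of EPL from EUC was 0.17 for *DDX58* (2 SE on either side from -0.34 to 0.68), -0.085 for *IFIH1* (-0.36 to 0.19), 0.0067 for *DHX58* (-0.20 to 0.21), 0.021 for *STING1* (-0.17 to 0.21) and -0.027 for *IFI16* (-0.21 to 0.15). For *AIM2* the interval was wide, at -0.62 (-1.55 to 0.30). Between SPL and SUC no sensor was called by either tool, where 0.00581% of all tested genes were, and 1, *AIM2*, had an unadjusted p under 0.05, beside 5.81% of all tested genes. *AIM2* was 2.12-fold higher in SPL (log2 difference 1.08, SE 0.484, adjusted p 0.824, edgeR). *IFIH1* was 1.16-fold higher in SPL with no overlap of the libraries (log2 difference 0.21, SE 0.138, adjusted p 0.867, edgeR), and 12.8% of all tested genes had no overlap between these groups. *DHX58* and *IFI16* were at 0.22 (0.0094 to 0.42) and 0.19 (0.0049 to 0.37), and *STING1* at -0.11 (-0.30 to 0.079). Whether the methods differed by species was tested as well, and no sensor was called by edgeR or DESeq2 (0.00% of all tested genes). The largest value was that of *AIM2*, at -1.70 (SE 0.671, adjusted p 1.00, edgeR), the 1 sensor with an unadjusted p under 0.05, beside 3.83% of all tested genes.

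The *E. coli* groups were compared with the *S. aureus* groups, mean against mean, at their different doses. No sensor reached 2-fold, so 0 of 8 were called by edgeR or DESeq2, beside 0.686% of all tested genes, while 6 of 8 had an unadjusted p under 0.05, beside 17.0% of all tested genes. Past the adjusted p alone were 3 of 8 sensors, beside 3.87%. *STING1* was 1.50-fold lower with *E. coli* BEVs (log2 difference -0.58, SE 0.0679, adjusted p 3.18e-05, edgeR). *DHX58* was 1.27-fold higher (log2 difference 0.35, SE 0.0727, adjusted p 0.00592, edgeR) and *IFI16* 1.23-fold higher (log2 difference 0.30, SE 0.0637, adjusted p 0.00604). For these 3 the 6 *E. coli* libraries did not overlap the 6 *S. aureus* libraries, as was so for 4.29% of all tested genes. The result for *STING1* held without any 1 of the 12 BEV libraries, with an adjusted p of at most 0.000222. For *DHX58* the adjusted p was above 0.01 in 9 of the 12 fits without 1 library and for *IFI16* in 8, with highest values of 0.0292 and 0.0283, always in the same direction. *IFIH1* was at 0.36 (SE 0.0972, adjusted p 0.0315, edgeR) and *DDX58* at 0.59 (SE 0.186, adjusted p 0.0758), with overlapping libraries. Without the 4 libraries that cluster apart, these were at log2 differences of 0.47 and 0.82, but there EUC is EUC1 alone, the highest library of *DDX58*. *CGAS*, *MAVS* and *AIM2* were at 0.14, 0.045 and 0.17, with adjusted p-values of 0.174, 0.913 and 0.893 by edgeR.

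Genes that work with the sensors were followed as 12 lists of 94 genes in all, of which 81 were tested. In EUC and in EPL 23 were called up and 5 down, in SUC 20 and 2, and in SPL 21 and 4, by the same edgeR test. The share called up was 28.4% in EUC and EPL, 24.7% in SUC and 25.9% in SPL, beside 6.82% to 9.43% of all tested genes. The lists were chosen with earlier results of these data known, so the higher share does not count as support. The counts include *TLR7* and *TLR8*, which passed the filter on low counts only through the BEV libraries and had to differ. The share called down, 6.17% in EUC and EPL, 2.47% in SUC and 4.94% in SPL, lay near the 3.06% to 5.75% of all tested genes. The median log2 fold change over the tested genes was between 0.22 in SPL and 0.26 in EPL, beside medians within 0.01 of 0 over all tested genes. Among 13 partners of the RNA sensors and enzymes activated by RNA, 6 were called up in each group and none down, *OASL*, *OAS1*, *OAS2*, *OAS3*, *EIF2AK2* and *DDX60*. *OASL*, which binds RIG-I, went from 4.79 ± 0.295 CPM in PBS cells to 90.6 ± 9.28 for EUC, 88.0 ± 8.20 for EPL, 59.1 ± 4.22 for SUC and 69.7 ± 7.39 for SPL (SD, n = 3; log2 fold changes 3.62 to 4.24). *EIF2AK2*, the kinase PKR, rose with log2 fold changes of 2.28 to 2.63. None of 11 other DNA sensors and their partners was called in any group. The other PYHIN genes *MNDA* and *PYHIN1* were not called either, and *MNDA* was at log2 fold changes of -0.76 to -0.56. Of 6 tested genes of STING trafficking and cGAMP handling, *SLC19A1*, a transporter that imports cGAMP, was called down in EUC, EPL and SPL. Its level was 158 CPM in PBS cells and 60.8 for EUC, 62.9 for EPL, 81.6 for SUC and 75.5 for SPL.

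Downstream of the adaptors, 4 of 11 kinases, adaptors and factors were called up in each group and none down. *IRF7*, the interferon regulatory factor, went from 36.2 ± 2.73 CPM in PBS cells to 295 ± 39.0 for EUC, 275 ± 60.2 for EPL, 204 ± 27.8 for SUC and 226 ± 16.2 for SPL (SD, n = 3). *IKBKE*, one of the kinases, was at log2 fold changes of 1.97 to 2.20, *TANK* at 1.03 to 1.35 and *TRAF3* at 1.06 to 1.14. The kinase *TBK1* was at 0.40 to 0.58, under 2-fold, and *IRF3* at -0.37 to -0.21, with adjusted p-values of 0.0363 to 0.267 by edgeR. Of 8 negative regulators, the deubiquitinase *CYLD* and the ligase *TRIM21* were called up in every group, and *NLRC3*, a regulator of STING, and *RNF125*, a ligase for RIG-I, were called down in every group. Among 7 tested nucleases and RNA editors, *ADAR* was called up in every group at log2 fold changes of 1.11 to 1.43. *PNPT1* was called up in EUC and EPL and was at 0.92 in SUC and 0.94 in SPL. *RNASEH2B* was called down in EUC and EPL and was at -0.68 in SUC and -0.97 in SPL.

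Next to *AIM2* stand the parts of the inflammasome, of which 6 of 7 were tested. *IL1B*, the cytokine that caspase-1 matures, rose in every group, from 2.15 ± 0.587 CPM in PBS cells to between 599 ± 88.7 in SUC and 1733 ± 234 in EUC (SD, n = 3), and it was the 1 gene of the lists called between the species. *CASP1* was at log2 fold changes of 0.96 to 1.29, called in EUC, EPL and SPL. *PYCARD*, the adaptor ASC that joins AIM2 to caspase-1, went the other way, with 63.8 ± 5.56 CPM in PBS cells, 27.6 ± 8.04 for EUC, 23.6 ± 6.94 for EPL, 36.2 ± 11.0 for SUC and 29.9 ± 3.59 for SPL. It was called down in EUC, EPL and SPL, and in SUC it was at -0.82 (adjusted p 0.0086, edgeR). Of 6 genes of the necroptosis pathway to which ZBP1 belongs, *TICAM1* was called up in each group, at 1.33 to 1.63. In the interferon receptor pathway, *STAT2* and *IRF9* were called up in each group, and *STAT2* was at log2 fold changes of 2.09 to 2.72. Of the endosomal receptors, *TLR8* and *TLR7* were called up in each group from means of 0.100 and 0.265 CPM in PBS cells. Both passed the filter on low counts only through the BEV libraries, so they had to differ.

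**Figure D5:**
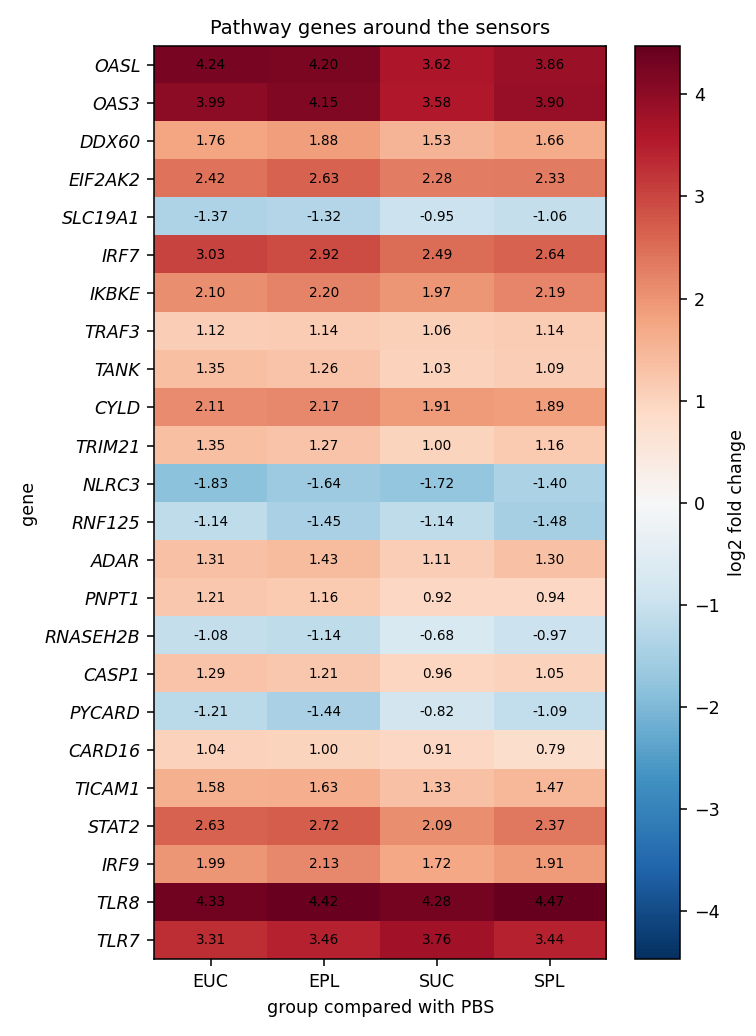
Log2 fold change against PBS (colour and printed value) of 24 named pathway genes (rows) in EUC, EPL, SUC and SPL (columns), from the edgeR fit. Red is higher and blue lower than PBS; *TLR8*, *OASL* and *OAS3* have values of 3.58 to 4.47 and *NLRC3* of -1.83 to -1.40, and *IL1B* is left out because its values would set the colour scale.

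The interferons themselves were at the limit of detection. *IFNB1*, the 1 gene of 7 with enough counts for the test, passed the filter on low counts only through the BEV libraries. There were 3, 2 and 0 reads of *IFNB1* in PBS libraries. It had 3, 9 and 22 reads for EUC, 14, 8 and 7 for EPL, 6, 15 and 10 for SUC and 3, 7 and 1 for SPL. The ratio of normalized counts to PBS, with 95% exact binomial intervals that cover counting error only, was 7.27 for EUC (2.83 to 23.8), 6.10 for EPL (2.34 to 20.2), 6.69 for SUC (2.58 to 22.0) and 2.38 for SPL (0.762 to 8.73). The edgeR test with the spread between libraries called none of these, with adjusted p-values of 0.0146, 0.0287, 0.0269 and 0.413. *IFNL1* had 0 reads in PBS cells and 6, 10, 16 and 11 in EUC, EPL, SUC and SPL. Set against 3 reads over the PBS group, the ratios were 2.14, 3.51, 5.75 and 3.96. They leave out the counting error of the BEV reads and are not lower limits of a rise. *IFNA1*, *IFNA2* and *IFNL2* had 0 reads in all 15 libraries.

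The tested genes whose log2 CPM followed each called sensor most closely over the 15 libraries were found by Pearson's r. These values are descriptions, since the libraries share their groups and the difference between PBS and BEV cells sets most of each r. *DDX58* was followed by *ARHGAP20*, *ARMC9* and its relative *DDX60* (r = 0.984 each). *IFIH1* was followed by *NFKB1*, a subunit of NF-kappa B, and *TNIP3* (both r = 0.996) and *GSAP* (0.995). *DHX58* was nearest to *RAB7B* (0.998), *MMP9* and *SLC15A3* (both 0.997), the last a transporter of the endolysosome. *IFI16* was nearest to *IL7R*, *MGLL* and *TMEM255A* (0.998 each). *STING1*, which fell, was followed by *MICAL1* (0.996), *SLC11A1*, a metal transporter of phagosomes (0.994), and *PCYT2* (0.992). For *AIM2* the values were lower, 0.943 for *MUC1* and *CDCA8* and 0.942 for *CDK5RAP2*.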

How the data were processed

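The submitters' processing notes name FastQC 0.11.5, HISAT2 2.1.0, StringTie 1.3.3b, DESeq 1.28.0, featureCounts and the genome hg38, with no role for each, and the methods of the study give HISAT2 as the aligner. The values deposited by the authors are whole-number read counts per Ensembl gene without normalization. The strand setting, the annotation and the handling of reads that overlap several genes are unknown, as none of the sources used here gives them. These counts were tested with edgeR (version 4.0.16, R 4.3.3) after filterByExpr and TMM normalization, in a quasi-likelihood model without a replicate block over all 15 libraries. The Benjamini-Hochberg adjustment ran over all 17198 tested genes. A call needed both an adjusted p no greater than 0.01 and a change of 2-fold or more, the thresholds of the study, which used DESeq2 (version 1.42.0 is an alternative here). The edgeR test was tried on simulated counts for EUC against PBS, with the same spread for all genes and no library apart from its group. The fold threshold, the other comparisons, the ratios and the count limits were not part of that trial. Groups were taken from the sample titles, and positions and lengths from GENCODE release 44. All 9 sensors are named. Of each pathway list up to 4 genes are named, those with the 2 largest and 2 smallest mean changes among the called, besides *IFNB1* and, for each called sensor, the 3 genes of highest r. *OAS1*, *OAS2*, *MNDA*, *PYHIN1*, *TBK1*, *IRF3* and the interferons other than *IFNB1* fall outside this rule and were picked with their values in view, and 1 gene that the rule names is not reported here. The sensors, lists, motifs and tests were chosen with earlier results of these data known. Alternatives were DESeq2 size factors in edgeR, no filter on low counts, other thresholds, glmTreat, fits of the compared groups alone, a replicate block, DESeq2, ratios of mean CPM with 0.5 added, the canonical transcript's length, and leaving out each library.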

Additional observations from a re-analysis of the deposited data

Results flagged for a closer look

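*STING1*, *DHX58* and *IFI16* are listed because the test of the difference between the *E. coli* and *S. aureus* groups passed an adjusted p of 0.01 in the edgeR fit, each short of 2-fold. For *STING1* the log2 difference was -0.582 (adjusted p 3.18e-05), with all 6 *E. coli* libraries below the 6 *S. aureus* libraries. For *DHX58* it was 0.347 (adjusted p 0.00592) and for *IFI16* 0.304 (adjusted p 0.00604), with all 6 *E. coli* libraries above. Species and dose changed together between these groups and cannot be told apart.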

How the results depend on the processing

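The number of sensors called stayed within 1.5 times its main value in each comparison, except that 3 (2 up and 1 down) passed between *E. coli* and *S. aureus* BEVs without the fold threshold. Without it, 48 pathway genes were called for EUC, 53 for EPL, 42 for SUC and 45 for SPL, in place of 28, 28, 22 and 25. Replicate numbers did not pair the libraries, since the deviations of same-numbered libraries had correlations from -0.45 to 0.52. With a replicate block, 6 sensors were called in each comparison with PBS and 0 elsewhere, as without it, and the difference of *DHX58* between the species had an adjusted p of 0.0103. The fit without EUC2, EUC3, EPL1 and SUC3 was chosen after seeing the data and leaves 1 library in EUC, assumed to vary like the other groups, and 2 each in EPL and SUC. Signs changed only for values that no fit called, and the cause was not tested. In that fit *MAVS* against PBS was 0.072 for EUC and 0.053 for EPL, and leaving out 1 library moved it from -0.14 to 0.049 for EPL. Between EPL and EUC that fit, with 2 libraries against 1, gave -0.21 for *DDX58*, -0.034 for *DHX58*, -0.019 for *MAVS* and 0.042 for *IFI16*. Leaving out 1 library there gave -0.025 to 0.53 for *DDX58*, -0.30 to 0.037 for *IFIH1*, -0.054 to 0.034 for *DHX58*, -0.037 to 0.063 for *CGAS* and -0.067 to 0.075 for *STING1*, and *CGAS* was at -0.0023 without a filter and -0.0014 with DESeq2. Between SPL and SUC the fit without 4 libraries gave -0.15 for *DDX58* and -0.047 for *MAVS*, and leaving out 1 library -0.15 to 0.23 and -0.046 to 0.15. Between the species, leaving out 1 library gave -0.047 to 0.11 for *MAVS* and -0.0072 to 0.28 for *AIM2*. Read counts limit what can be said of *AIM2*, *ZBP1* and the interferons.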
